A study of Caenorhabditis elegans with 9 samples.

Results

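The 41 genes described here encode the parts of the nuclear pore and the carriers that move cargo through it. They are all genes whose symbol begins with npp- (nucleoporins, 26 genes), ima- (importin alpha, 3), imb- (importin beta family, 3), xpo- (exportins, 4) or ran- (the Ran cycle, 5) and that had a probe set assigned to 1 gene alone, out of 17118 genes measured in the same way. RefSeq names 41 genes with these prefixes, so every one of them was measured. A nucleoporin without the prefix, rae-1, is outside the set. The nuclear pore complex is a ring of nucleoporins set in the nuclear envelope, and its central channel is filled with disordered protein stretches rich in phenylalanine and glycine (FG repeats). Importins carry cargo in and exportins carry it out; the small GTPase Ran, loaded with GTP inside the nucleus and made to hydrolyse it in the cytoplasm, sets the direction. In the C. elegans embryo the envelope and its pores are taken apart and rebuilt at each of the fast early divisions, from proteins that the mother supplies to a large extent. In vertebrates the pore also meets the SUMO pathway: RanGAP modified by SUMO is held at the pore by NUP358, itself a SUMO ligase.

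Mixed-stage Caenorhabditis elegans embryos were bleached out of gravid XX hermaphrodites and their RNA was hybridised to 9 Affymetrix arrays, 3 for each of 3 groups. Mothers of the control embryos were N2 worms (wild type) fed HT115 bacteria with the empty vector L4440 for 96 hours at 20 °C. Mothers of the smo-1 RNAi embryos were N2 worms fed HB101 for the first 24 hours and then, for 72 hours, RNAi bacteria directed at smo-1, the SUMO gene. The remaining group, sdc-2(y93)+RNAi, came from mothers with the allele sdc-2(y93), fed on the second schedule; its embryos and arrays are called sdc-2 embryos and sdc-2 arrays from here on. The labels give sdc-2 RNAi for this group, whereas the growth protocol names a plasmid against smo-1 for both RNAi conditions. SDC-2 brings the dosage compensation complex to the X chromosome. Feeding schedule and RNAi cannot be told apart in the comparisons with control, and for sdc-2 embryos the allele cannot be told apart from them either. Levels are the deposited log2 values, on which a difference of 1 is a 2-fold change, and the number of arrays limits their precision. Nothing in the labels says that replicates were separate cultures, so p-values rest on a spread between samples that may be only technical.

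As a check of the labels, the smo-1 messenger lay at 11.96, 11.79 and 12.04 on the control arrays, 7.91, 8.21 and 8.66 on the smo-1 RNAi arrays and 10.96, 10.74 and 10.94 on the sdc-2 arrays. It was 12.7-fold lower after smo-1 RNAi, -3.67 ± 0.17 (log2, SE, limma adjusted p = 6.55e-08), and also 2.07-fold lower in sdc-2 embryos, -1.05 ± 0.17 (log2, SE, limma adjusted p = 0.000942). The sdc-2 messenger differed in the latter by -0.35 ± 0.16 (log2, SE, limma adjusted p = 0.14) with its brightest probe set and by -1.38 ± 0.10 with the other, which passed as lower over all probe sets (limma adjusted p = 1.34e-05). The other probe set also gave -0.67 ± 0.10 after smo-1 RNAi (limma adjusted p = 0.000237), and it can bind related transcripts. In sdc-2 embryos her-1, the male-promoting gene that SDC-2 represses, was 5.57-fold higher (2.48 ± 0.10, limma adjusted p = 4.18e-07).

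Several measurements moved with the groups, and in mixed-stage embryos fewer cells of a type and less RNA per cell cannot be told apart. Of 26 oocyte and early embryo transcripts, 14 fell and 3 rose after smo-1 RNAi, with a mean log2 level per array of 8.97 to 9.12 against 9.23 to 9.42 in control and 9.38 to 9.77 in sdc-2 embryos. Of 18 early zygotic transcripts 10 fell and 0 rose after smo-1 RNAi (array means 7.06 to 7.21, against 7.67 to 7.91 in control and 7.87 to 7.94 in sdc-2 embryos), and 5 rose and 2 fell in sdc-2 embryos. After smo-1 RNAi 8 of 16 intestine, 10 of 17 body wall muscle, 7 of 13 pharynx and 12 of 18 neuron markers rose, 1, 2, 2 and 1 fell, and of 15 epidermis markers 0 rose and 6 fell. Their array means in control, smo-1 RNAi and sdc-2 embryos spanned 8.54 to 8.72, 9.41 to 9.43 and 8.66 to 8.76 for intestine, 10.51 to 10.74, 11.03 to 11.23 and 10.69 to 10.80 for muscle, and 8.46 to 8.88, 9.16 to 9.35 and 8.58 to 8.81 for neurons. For pharynx they were 8.99 to 9.44, 9.71 to 9.94 and 8.98 to 9.22, and for epidermis 9.55 to 9.63, 9.20 to 9.41 and 9.29 to 9.55. Of the adult yolk and sperm markers only 1 of 14 exceeded the median level of all genes, 6.65. The 3′ minus 5′ difference of actin probe sets, which reads RNA integrity and labelling, was 0.66 higher on smo-1 RNAi and 0.81 higher on sdc-2 arrays than on control arrays (exact two-sided permutation p = 0.1 each, the smallest that 3 against 3 allows). The same difference was 0.32 and 0.34 higher for ubiquitin, -0.26 and 0.52 for GAPDH, and 0.86 and -0.08 for catalase, each with an exact p of 0.1 but for catalase on the sdc-2 arrays (0.6). The hybridisation control cre, a transcript spiked in before hybridisation, was 7.87 higher on the sdc-2 arrays than on the control arrays, so the hybridisation and the group cannot be told apart there. The part of embryo age, cell makeup and RNA quality in the values below was not tested.

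Set against each other, the perturbed groups differed in 21 of the 41 messengers for the pore and its carriers. Of the 41 genes, 20 were lower and 1 was higher with smo-1 RNAi than in sdc-2 embryos (limma, adjusted p under 0.05), with a median difference of -0.35 (log2) against -0.01 over all genes. Over all genes 17.2% were lower and 18.4% higher. Calls are more frequent among the genes above the median level, to which 38 of the 41 belong: there 30.8% were lower and 25.2% higher, with a median of -0.05, and of the 38 genes 19 were lower and 1 was higher. None of the 41 genes lies on the X chromosome. Among autosomal genes above the median level 28.71% were lower and 25.46% higher, and the median was -0.03. With the second brightest probe set of each gene that has several, an alternative chosen after seeing the data, 19 of the 41 were lower and 1 higher, with a median of -0.35. Only 16 of the 41 genes have several probe sets, and the others kept the same values, so much of this likeness was fixed in advance. Of the 16 alone, 10 were lower by the brightest and 9 by the second brightest, not all of them the same genes. Early markers moved the same way in this comparison: 19 of 26 oocyte and early embryo transcripts were lower and 3 higher with smo-1 RNAi (median -0.87), and 10 of 18 early zygotic transcripts were lower and 0 higher (median -0.51). Their part in the count was not tested.

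Set against control, the share of pore and transport genes that fell with smo-1 RNAi was close to that of other well-measured genes. The 17 of 41 that fell (41.5%) stand beside 22.2% of all genes and 38.2% of genes above the median level, so this count is not a result about the set. The 3 that rose (7.32%) stand beside 17.8% and 22.5%. Among autosomal genes above the median level 42.11% fell and 18.33% rose. The median over the 41 genes was -0.32 (log2), against -0.00206 over all genes and -0.24 over autosomal genes above the median level. Per array, the median difference of the 41 genes from the control mean was -0.33, -0.28 and -0.30 on the smo-1 RNAi arrays and 0.03, -0.13 and 0.10 on the control arrays. Without control array 1 or control array 3 the count of lower genes was 9, and without smo-1 RNAi array 1 or 3 it was 11. Over all genes 3287 and 3126 were lower without these control arrays, and 3368 and 3325 without these smo-1 RNAi arrays. The count of higher genes was 1 without control array 2 or smo-1 RNAi array 1, where 2795 and 2840 of all genes were higher.

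The comparison of sdc-2 embryos with control uses the same control arrays. Here 11 of 41 genes rose (26.8%), beside 10.9% of all genes and 19.8% of genes above the median level, and 6 fell (14.6%), beside 15.6% and 28%. Those shares include X genes, whereas the 41 are all autosomal. Among autosomal genes above the median level 12.63% rose and 32.75% fell. The median was 0.12 (log2), against 0.02 over all genes and -0.18 over autosomal genes above the median level. Of 15 importin, exportin and Ran genes 7 rose and 2 fell (median 0.33), and of 26 nucleoporin genes 4 rose and 4 fell (median -0.04). On the 3 sdc-2 arrays the median of the carriers stood 0.47, 0.51 and 0.55 above the control mean. The count of higher genes rested on the probe set: 10 of the 11 are genes read by several probe sets, and with the second brightest in place of the brightest 1 of 41 rose and 7 fell, with a median of -0.07. The count of lower genes was 3 without control array 3, where 2085 of all genes were lower, against 2675 with every array.

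**Figure D1:**
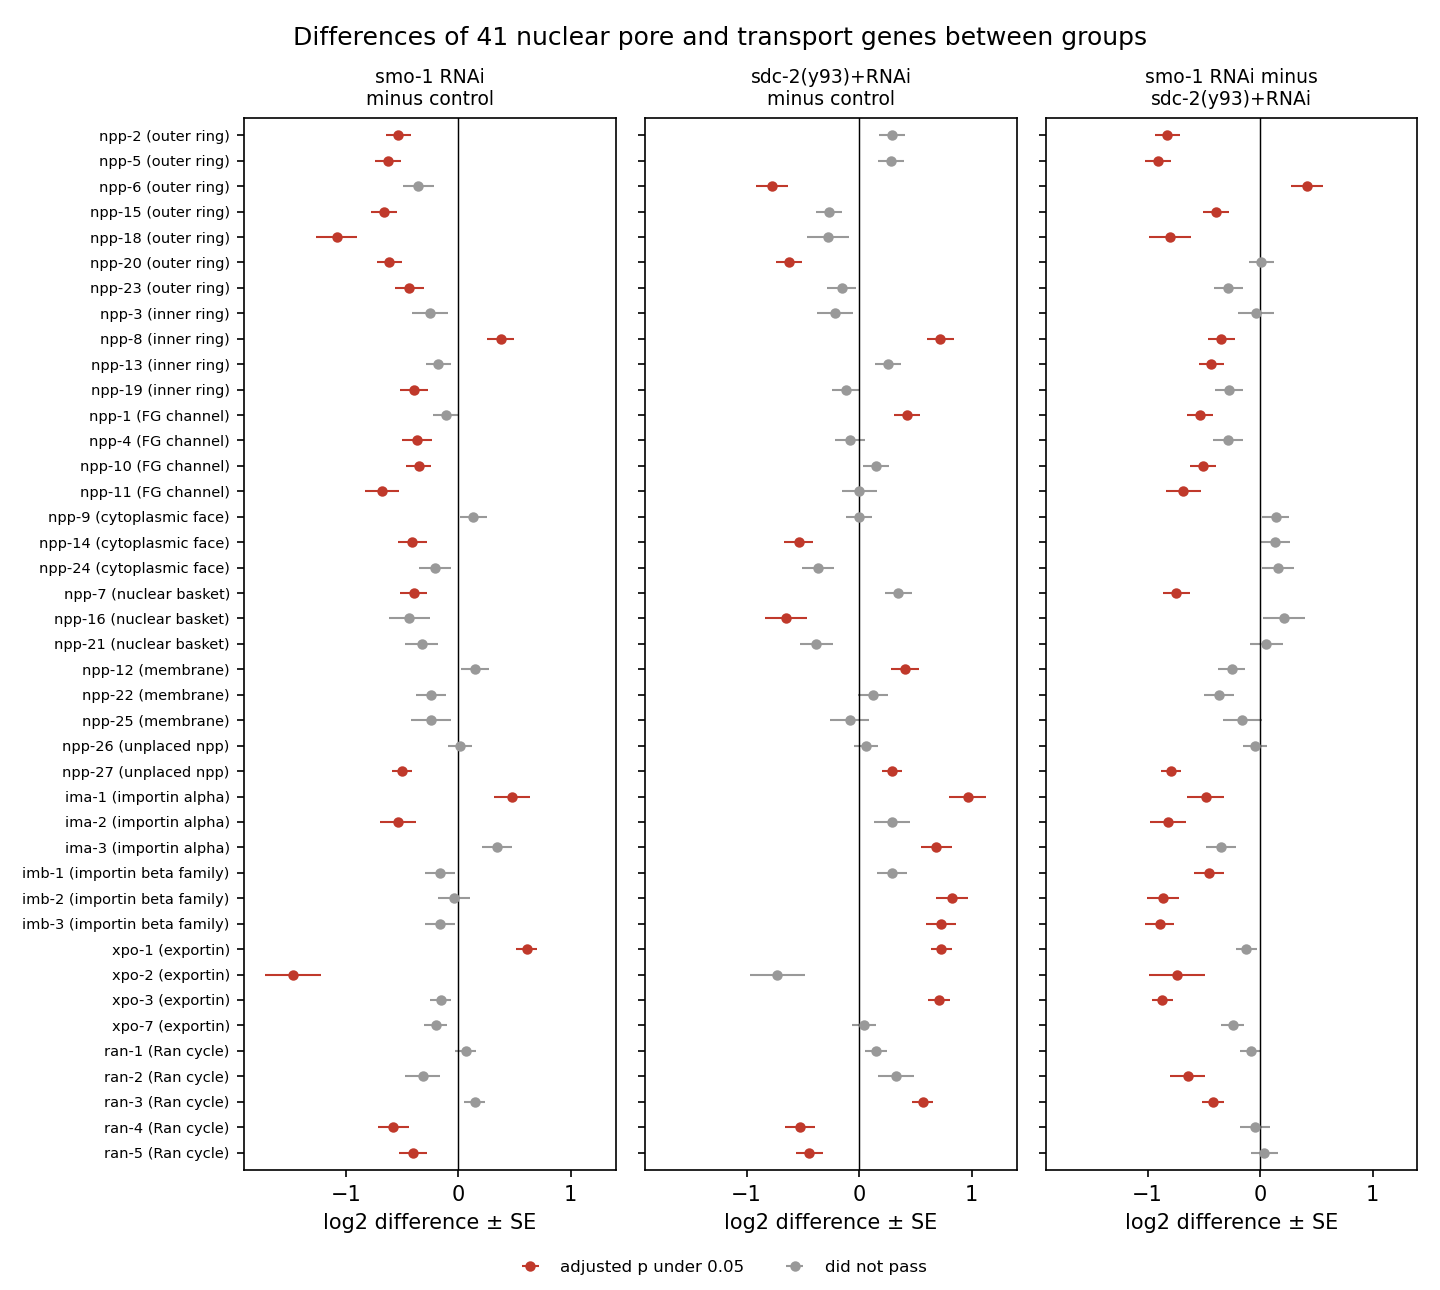
Log2 differences of the 41 genes between groups, from limma, with the standard error as bars. Each row is a gene with its place in the pore or its kind of carrier, and each panel is a comparison; red points passed a limma adjusted p of 0.05. In the right panel 20 genes lie below 0 in red and npp-6 alone lies above it.

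The outer ring of the pore, the Y-shaped scaffold that also seeds new pores on chromatin after mitosis, had 6 of 7 genes lower and 0 higher after smo-1 RNAi, with a median of -0.61 (log2). Over genes above the median level 38.2% were lower in this comparison, and nothing particular to the ring was tested. By the brightest probe sets, the largest fall was that of npp-18, the gene of the SEH1 counterpart. It lay at 9.48, 9.31 and 9.63 on the control arrays, 7.97, 8.42 and 8.78 on the smo-1 RNAi arrays and 9.32, 8.97 and 9.30 on the sdc-2 arrays. Every smo-1 RNAi array of npp-18 lay below every other array, and its level was 2.12-fold lower than control, -1.08 ± 0.19 (log2, SE, limma adjusted p = 0.000801). For npp-5 (the NUP107 counterpart) the levels were 8.51, 8.34 and 8.73 on the control arrays, 8.05, 7.82 and 7.84 on the smo-1 RNAi arrays and 8.80, 8.75 and 8.88 on the sdc-2 arrays. The smo-1 RNAi arrays again stood apart below the rest, -0.62 ± 0.11 (log2, SE, limma adjusted p = 0.00121), while the sdc-2 arrays lay above those of control without passing the test (0.28 ± 0.11, limma adjusted p = 0.101). The other probe set of npp-5 gave -0.71 ± 0.18 and -0.18 ± 0.18 in these comparisons. The level of npp-2 (the NUP85 counterpart) was 10.04, 9.78 and 10.08 on the control arrays, 9.57, 9.43 and 9.31 on the smo-1 RNAi arrays and 10.29, 10.12 and 10.37 on the sdc-2 arrays. It showed the same arrangement, with -0.53 ± 0.11 (log2, SE, limma adjusted p = 0.00327) against control and -0.82 ± 0.11 between the perturbed groups (limma adjusted p = 0.000222). The npp-15 messenger (NUP133 counterpart) read 8.47, 8.35 and 8.52 on the control arrays, 7.54, 7.88 and 7.94 on the smo-1 RNAi arrays and 8.12, 8.21 and 8.21 on the sdc-2 arrays. It fell by 0.66 after smo-1 RNAi (limma adjusted p = 0.000776), and the groups did not overlap. Between the perturbed groups its difference of -0.39 ± 0.11 (limma adjusted p = 0.0185) was a call lost without smo-1 RNAi array 1 or sdc-2 array 3 (limma adjusted p up to 0.0607). Of the other outer ring genes, npp-20 (the SEC13 counterpart, a protein shared with the vesicle coat COPII) fell in both groups. Its differences were -0.61 ± 0.11 after smo-1 RNAi (limma adjusted p = 0.00129) and -0.62 ± 0.11 in sdc-2 embryos (limma adjusted p = 0.00209). The other probe set of npp-20 gave larger falls, -1.50 ± 0.21 and -1.30 ± 0.21, which passed over all probe sets (limma adjusted p = 0.000165 and 0.0009). The NUP43 counterpart npp-23 fell after smo-1 RNAi, -0.44 ± 0.13 (log2, SE, limma adjusted p = 0.019), a call lost without control array 1 or 3, or smo-1 RNAi array 1 (limma adjusted p up to 0.0729).

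The exception in the outer ring was npp-6, the NUP160 counterpart. Its levels were 9.77, 9.50 and 9.77 on the control arrays, 9.35, 9.40 and 9.23 on the smo-1 RNAi arrays and 9.01, 8.59 and 9.13 on the sdc-2 arrays. The 3 groups did not overlap, with control highest and sdc-2 lowest. It fell in sdc-2 embryos, -0.77 ± 0.14 (log2, SE, limma adjusted p = 0.00214), and did not pass after smo-1 RNAi (-0.35 ± 0.14, limma adjusted p = 0.07). It was the 1 gene of 41 higher after smo-1 RNAi than in sdc-2 embryos (0.42 ± 0.14, limma adjusted p = 0.0386), a call lost without control array 1 or 3, smo-1 RNAi array 1, 2 or 3, or sdc-2 array 1 or 2 (limma adjusted p up to 0.119).

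**Figure D2:**
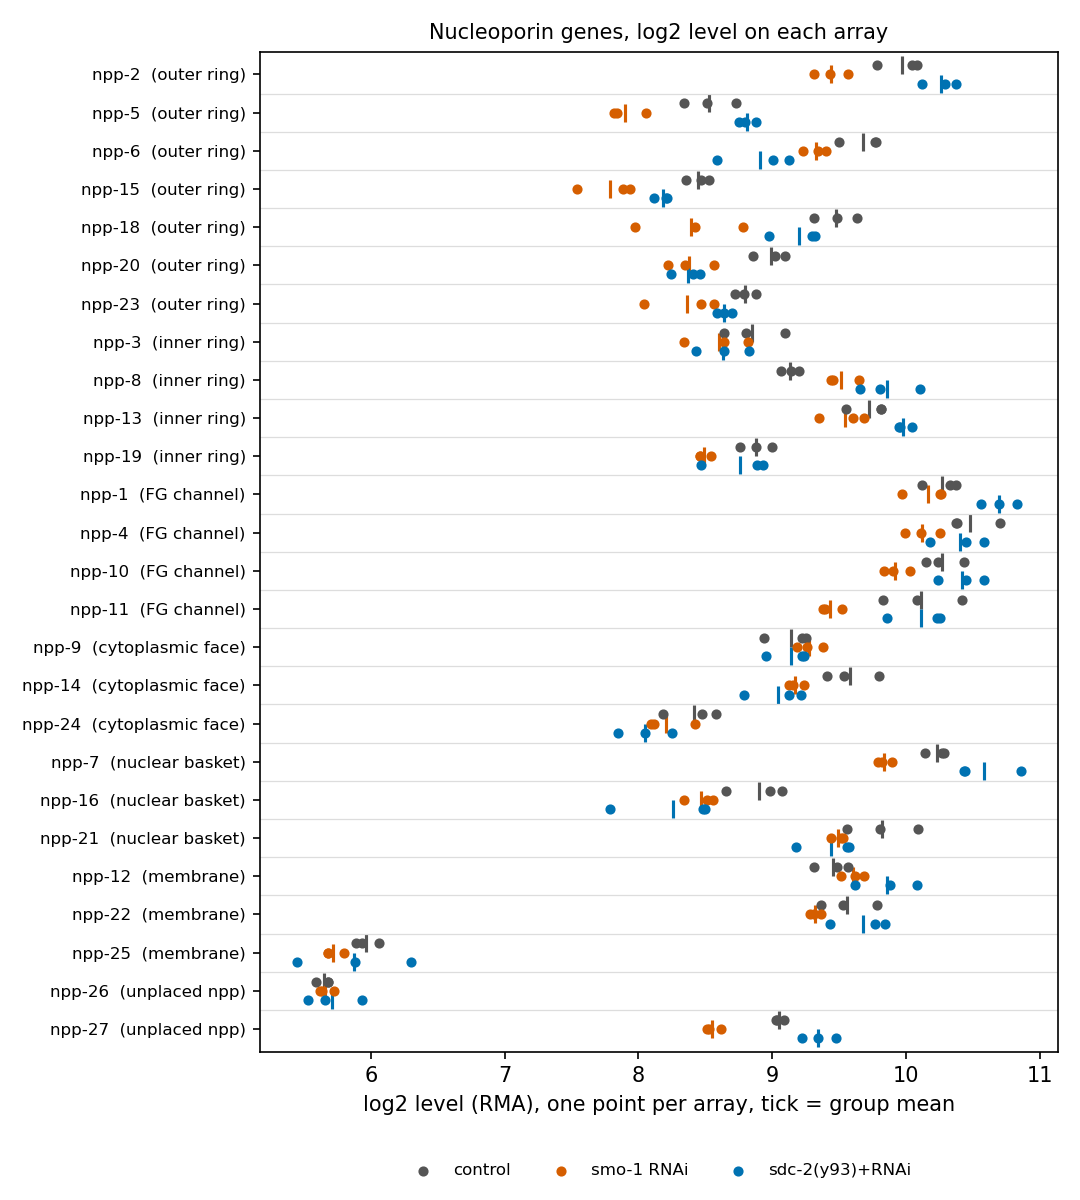
Log2 level of the 26 nucleoporin genes on each array, from the brightest probe set of each, grouped by place in the pore; points are arrays and ticks are group means. Points of different genes come from different probe sets and are not to be compared across rows. For npp-2, npp-5, npp-7 and npp-27 the 3 smo-1 RNAi points lie below all control points and the 3 sdc-2(y93)+RNAi points above them. For npp-5, npp-7 and npp-27 the other probe sets gave differences of -0.57 to 0.01 from control in that group.

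The inner ring, which ties the scaffold to the membrane and the channel, was mixed. After smo-1 RNAi 1 of 4 genes rose and 1 fell, and in sdc-2 embryos 1 rose and 0 fell. The NUP155 counterpart npp-8 read 9.14, 9.06 and 9.20 on the control arrays, 9.65, 9.44 and 9.45 on the smo-1 RNAi arrays and 9.65, 10.10 and 9.81 on the sdc-2 arrays. Both perturbed groups lay above all control arrays, and it rose in both, by 0.38 ± 0.12 after smo-1 RNAi (limma adjusted p = 0.0274) and 0.72 ± 0.12 in sdc-2 embryos (limma adjusted p = 0.00129). The first call was lost without control array 1 or 2, or smo-1 RNAi array 1 (limma adjusted p up to 0.102). The gene has 6 probe sets, and the second brightest gave -0.41 ± 0.10 and -0.22 ± 0.10 in the same comparisons, so its direction was not settled. It was also lower after smo-1 RNAi than in sdc-2 embryos (-0.34 ± 0.12, limma adjusted p = 0.0467), a call lost without control array 1, 2 or 3, smo-1 RNAi array 2 or 3, or sdc-2 array 2 or 3 (limma adjusted p up to 0.143). The NUP35 counterpart npp-19 fell after smo-1 RNAi (-0.39 ± 0.13, limma adjusted p = 0.029), a call lost without control array 1 or 3, or smo-1 RNAi array 1, 2 or 3 (limma adjusted p up to 0.112). The NUP93 counterpart npp-13 was lower after smo-1 RNAi than in sdc-2 embryos, -0.43 ± 0.11 (log2, SE, limma adjusted p = 0.0106). For npp-3, the NUP205 counterpart, the differences from control were -0.25 ± 0.16 and -0.21 ± 0.16, with overlapping arrays. The other probe set of npp-3 gave -0.36 ± 0.13 after smo-1 RNAi and 0.01 ± 0.13 in sdc-2 embryos. The first passed as lower over all probe sets (limma adjusted p = 0.038), as did -0.37 ± 0.13 between the perturbed groups (limma adjusted p = 0.0394).

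Of the 4 genes of FG-repeat nucleoporins that line the channel 3 fell after smo-1 RNAi, beside the same 38.2%. The clearest was npp-11, the NUP62 counterpart, with -0.68 ± 0.15 (log2, SE, limma adjusted p = 0.00461) against control and -0.68 ± 0.15 against sdc-2 embryos (limma adjusted p = 0.00504). The smo-1 RNAi arrays of npp-11 (9.38 to 9.52) lay below all others (9.83 to 10.42). The npp-10 transcript encodes a precursor that is cleaved into an FG protein and an outer ring protein, the counterparts of NUP98 and NUP96. It lay at 10.24, 10.15 and 10.43 on the control arrays, 9.83, 10.03 and 9.90 on the smo-1 RNAi arrays and 10.45, 10.24 and 10.58 on the sdc-2 arrays, with the smo-1 RNAi arrays lowest. Its fall, -0.35 ± 0.11 (log2, SE, limma adjusted p = 0.0301), was a call lost without control array 1 or 3, or smo-1 RNAi array 1 or 3 (limma adjusted p up to 0.129); against sdc-2 embryos the difference was -0.50 ± 0.11 (limma adjusted p = 0.00509). The NUP58 counterpart npp-4 fell by a margin at the threshold (-0.37 ± 0.13, limma adjusted p = 0.0491), a call lost without control array 1, 2 or 3, smo-1 RNAi array 1 or 3, or sdc-2 array 3 (limma adjusted p up to 0.2). The NUP54 counterpart npp-1 differed from control by -0.11 ± 0.12 after smo-1 RNAi (limma adjusted p = 0.522) and rose in sdc-2 embryos, 0.42 ± 0.12 (log2, SE, limma adjusted p = 0.0193). That rise was a call lost without control array 2 or sdc-2 array 2 (limma adjusted p up to 0.0797). The other probe set of npp-1 gave -1.10 ± 0.13 and -0.13 ± 0.13, while both placed it lower after smo-1 RNAi than in sdc-2 embryos (-0.53 ± 0.12 and -0.97 ± 0.13).

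On the cytoplasmic face, the counterpart of NUP358 is npp-9, the Ran-binding filament protein whose vertebrate form is the SUMO ligase of the pore. Its messenger was at 9.25, 8.94 and 9.22 on the control arrays, 9.26, 9.38 and 9.19 on the smo-1 RNAi arrays and 9.24, 8.95 and 9.22 on the sdc-2 arrays. All 3 groups overlapped, and it differed from control by 0.14 ± 0.12 after smo-1 RNAi (limma adjusted p = 0.425) and -0.0019 ± 0.12 in sdc-2 embryos (limma adjusted p = 0.994). The NUP214 counterpart npp-14 fell in both groups, with differences of -0.41 ± 0.13 (limma adjusted p = 0.0297) and -0.54 ± 0.13 (limma adjusted p = 0.0111). After smo-1 RNAi this call was lost without control array 1 or 3, or smo-1 RNAi array 1, 2 or 3 (limma adjusted p up to 0.129). Its partner npp-24, the NUP88 counterpart, differed by -0.20 ± 0.14 and -0.36 ± 0.14, with arrays overlapping those of control. None of these 3 genes differed between the perturbed groups past the threshold.

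At the nuclear basket, npp-7 encodes the counterpart of NUP153, which binds importins and Ran. It read 10.27, 10.14 and 10.28 on the control arrays, 9.90, 9.79 and 9.82 on the smo-1 RNAi arrays and 10.44, 10.86 and 10.43 on the sdc-2 arrays. The 3 groups did not overlap, with smo-1 RNAi lowest and sdc-2 highest, and the difference between these was -0.74 ± 0.12 (log2, SE, limma adjusted p = 0.00062). Against control it fell after smo-1 RNAi, -0.40 ± 0.12 (log2, SE, limma adjusted p = 0.0215), a call lost without control array 1 or 3, or smo-1 RNAi array 2 or 3 (limma adjusted p up to 0.0737). The other probe sets of npp-7 gave -0.53 ± 0.11 and -1.10 ± 0.15 after smo-1 RNAi. In sdc-2 embryos they gave -0.01 ± 0.11 and -0.57 ± 0.15, the latter passing as lower over all probe sets (limma adjusted p = 0.0139), against 0.35 ± 0.12 from the brightest, so its place above control was not settled. The basket filament gene npp-21, the TPR counterpart, was at 9.80, 9.56 and 10.09 on the control arrays, 9.52, 9.53 and 9.44 on the smo-1 RNAi arrays and 9.58, 9.18 and 9.56 on the sdc-2 arrays. Its smo-1 RNAi arrays lay just below those of control, but neither difference passed (-0.32 ± 0.15, limma adjusted p = 0.107, and -0.38 ± 0.15, limma adjusted p = 0.0837). The NUP50 counterpart npp-16 fell in sdc-2 embryos (-0.65 ± 0.18, limma adjusted p = 0.0243), a call lost without control array 1 or 3 (limma adjusted p up to 0.0928); sdc-2 array 2, at 7.79, lay below the other 2 (8.50 and 8.48).

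Of the 3 membrane nucleoporins, npp-12 (the gp210 counterpart) rose in sdc-2 embryos, 0.40 ± 0.12 (log2, SE, limma adjusted p = 0.0336), a call lost without control array 1 or 2, or sdc-2 array 1 or 3 (limma adjusted p up to 0.125). No other difference of npp-12, npp-22 (NDC1) or npp-25 (TMEM33) passed in any comparison. Mean levels of npp-25 (5.72 to 5.96 in the 3 groups) and npp-26 (5.65 to 5.71) lay below the median of all genes, so these 2 messengers were only dimly detected. The npp-27 gene, whose place in the pore is not described here, lay at 9.09, 9.03 and 9.04 on the control arrays, 8.53, 8.61 and 8.51 on the smo-1 RNAi arrays and 9.34, 9.22 and 9.47 on the sdc-2 arrays. Its groups did not overlap. It was the 1 gene called in opposite directions, lower after smo-1 RNAi (-0.50 ± 0.09, limma adjusted p = 0.00106) and higher in sdc-2 embryos (0.29 ± 0.09, limma adjusted p = 0.0328). The rise was lost without control array 1, 2 or 3, or sdc-2 array 1 or 3 (limma adjusted p up to 0.101) and the other probe set gave 0.01 ± 0.12 for it, but the difference between the perturbed groups was -0.79 ± 0.09 (limma adjusted p = 5.95e-05).

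The importin alpha genes encode the adaptors that bind nuclear localisation signals. In this worm ima-1 and ima-2 are known for germline expression and ima-3 for wider expression. The level of ima-2 was 9.94, 9.83 and 9.99 on the control arrays, 9.44, 9.37 and 9.36 on the smo-1 RNAi arrays and 10.54, 9.78 and 10.32 on the sdc-2 arrays. Every smo-1 RNAi array lay below every control array, while the sdc-2 arrays spread across and above control. It was 1.45-fold lower in smo-1 RNAi than in control embryos, -0.53 ± 0.16 (log2, SE, limma adjusted p = 0.0212), a call lost without control array 1 or 3, or smo-1 RNAi array 2 or 3 (limma adjusted p up to 0.0702). Against sdc-2 embryos it was 1.77-fold lower (-0.82 ± 0.16, limma adjusted p = 0.00211), a call kept without any single array.

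For ima-1 the brightest probe set gave 9.64, 9.36 and 9.32 on the control arrays, 9.92, 9.92 and 9.92 on the smo-1 RNAi arrays and 9.98, 10.59 and 10.64 on the sdc-2 arrays. Its groups did not overlap, control being lowest. The rise in sdc-2 embryos was 1.95-fold, 0.96 ± 0.16 (log2, SE, limma adjusted p = 0.00135). After smo-1 RNAi it was 0.48 ± 0.16 (log2, SE, limma adjusted p = 0.0359), a call lost without control array 2 or 3, or smo-1 RNAi array 1, 2 or 3 (limma adjusted p up to 0.121). The other 2 probe sets of ima-1 gave 0.10 ± 0.17 and 0.48 ± 0.14 in sdc-2 embryos and -0.27 ± 0.17 and -0.01 ± 0.14 after smo-1 RNAi. Between the perturbed groups ima-1 differed by -0.48 ± 0.16 (limma adjusted p = 0.0381), a call lost without control array 2, smo-1 RNAi array 1, 2 or 3, or sdc-2 array 2 or 3 (limma adjusted p up to 0.146).

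The ima-3 messenger read 10.38, 10.07 and 10.34 on the control arrays, 10.67, 10.54 and 10.61 on the smo-1 RNAi arrays and 10.78, 11.24 and 10.84 on the sdc-2 arrays. The groups did not overlap and stood in the same order as for ima-1. It rose in sdc-2 embryos, 0.69 ± 0.13 (log2, SE, limma adjusted p = 0.00314), and did not pass after smo-1 RNAi (0.34 ± 0.13, limma adjusted p = 0.0661). Its brightest probe set can also bind related transcripts. The other gave -0.08 ± 0.16 and -0.84 ± 0.16, so the direction of ima-3 against control was not settled. Between the perturbed groups the brightest gave -0.35 ± 0.13 (limma adjusted p = 0.0681). The other gave -0.75 ± 0.16 there, which passed as lower after smo-1 RNAi over all probe sets (limma adjusted p = 0.00314).

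**Figure D3:**
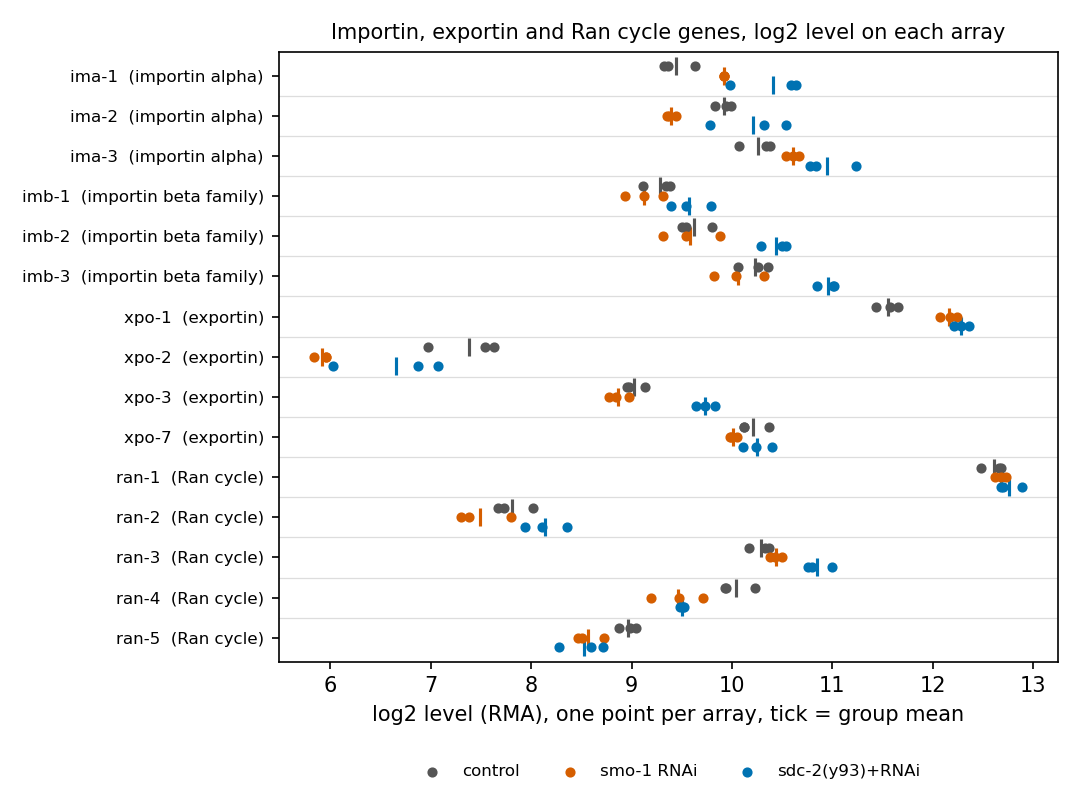
Log2 level of the 15 importin, exportin and Ran cycle genes on each array, from the brightest probe set of each; points are arrays and ticks are group means. The sdc-2(y93)+RNAi points of imb-2, imb-3, xpo-3 and ran-3 lie above all others, and the smo-1 RNAi points of xpo-2 lie below all others.

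With the brightest probe sets, all 3 importin beta family genes were lower after smo-1 RNAi than in sdc-2 embryos. Over genes above the median level 30.8% were lower in this comparison, and nothing particular to the family was tested. The importin beta gene imb-1, whose protein carries importin alpha and its cargo through the pore, read 9.35, 9.12 and 9.38 on the control arrays, 9.12, 8.93 and 9.31 on the smo-1 RNAi arrays and 9.39, 9.80 and 9.54 on the sdc-2 arrays. The smo-1 RNAi arrays lay below the sdc-2 arrays, and control overlapped the former, with -0.45 ± 0.13 between the perturbed groups (limma adjusted p = 0.0211), a call lost without smo-1 RNAi array 1 or 2, or sdc-2 array 2 (limma adjusted p up to 0.0901). Against control imb-1 differed by -0.16 ± 0.13 and 0.29 ± 0.13 (limma adjusted p = 0.406 and 0.148). The transportin gene imb-2 was at 9.80, 9.54 and 9.51 on the control arrays, 9.32, 9.54 and 9.88 on the smo-1 RNAi arrays and 10.29, 10.54 and 10.50 on the sdc-2 arrays. Its sdc-2 arrays stood above all others, 1.77-fold over control (0.83 ± 0.15, limma adjusted p = 0.00181) and 1.82-fold over smo-1 RNAi (-0.86 ± 0.15 for smo-1 RNAi minus sdc-2, limma adjusted p = 0.000831). The other probe set of imb-2 gave the second difference as -0.70 ± 0.13 but the first as -0.01 ± 0.13, and put the difference of smo-1 RNAi embryos from control at -0.71 ± 0.13 against -0.04 ± 0.15 from the brightest. The importin gene imb-3 followed the same pattern, with 0.73 ± 0.13 over control (limma adjusted p = 0.00209) and -0.89 ± 0.13 between the perturbed groups (limma adjusted p = 0.000348). Its other probe set gave -0.07 ± 0.13 and -0.29 ± 0.13, and the latter did not pass over all probe sets (limma adjusted p = 0.1215).

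With the brightest probe set of each gene, the exportins gave the largest fall and the smallest adjusted p of the set against control. The xpo-2 gene encodes the counterpart of CAS, which returns importin alpha to the cytoplasm. Its levels were 7.54, 6.98 and 7.63 on the control arrays, 5.96, 5.96 and 5.84 on the smo-1 RNAi arrays and 6.87, 6.03 and 7.08 on the sdc-2 arrays. All smo-1 RNAi arrays lay below all others, and xpo-2 was 2.76-fold lower than control, -1.47 ± 0.25 (log2, SE, limma adjusted p = 0.000728). The smo-1 RNAi level, 5.92, is below the median of all genes, where RMA values are compressed. In sdc-2 embryos, with array 2 at 6.03 far below the other 2, the difference did not pass (-0.73 ± 0.25, limma adjusted p = 0.0531). Between the perturbed groups it was -0.74 ± 0.25 (limma adjusted p = 0.0382), a call lost without control array 1, smo-1 RNAi array 1, 2 or 3, or sdc-2 array 1 or 3 (limma adjusted p up to 0.152).

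The xpo-1 gene encodes CRM1, the exportin for proteins with a leucine-rich export signal. Its brightest probe set read 11.65, 11.43 and 11.57 on the control arrays, 12.17, 12.24 and 12.07 on the smo-1 RNAi arrays and 12.21, 12.36 and 12.28 on the sdc-2 arrays. Both perturbed groups stood above control and overlapped each other. The rises were 0.61 ± 0.09 (log2, SE, limma adjusted p = 0.000374) after smo-1 RNAi and 0.73 ± 0.09 in sdc-2 embryos (limma adjusted p = 0.000282). The other probe set of xpo-1 gave -0.34 ± 0.11 in smo-1 RNAi, which over all probe sets passed in the opposite direction (limma adjusted p = 0.0258), and 0.31 ± 0.11 in sdc-2 embryos. The direction of xpo-1 after smo-1 RNAi was thus not settled, although both probe sets are of the kind specific to 1 transcript. Between the perturbed groups the brightest gave -0.12 ± 0.09 (limma adjusted p = 0.378). The other gave -0.66 ± 0.11 there, which passed as lower after smo-1 RNAi over all probe sets (limma adjusted p = 0.000694).

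The exportin of transfer RNA, xpo-3, is read by 1 probe set, so its rise in sdc-2 embryos could not be checked with another. It lay at 8.97, 9.13 and 8.96 on the control arrays, 8.84, 8.77 and 8.98 on the smo-1 RNAi arrays and 9.64, 9.83 and 9.73 on the sdc-2 arrays. The sdc-2 arrays stood 1.64-fold above control, 0.71 ± 0.10 (log2, SE, limma adjusted p = 0.000372), and 1.83-fold above smo-1 RNAi embryos (-0.87 ± 0.10 for smo-1 RNAi minus sdc-2, limma adjusted p = 5e-05, the smallest of the 41 in that comparison). The probe set can also bind related transcripts. The remaining exportin gene, xpo-7, did not pass in any comparison (differences of -0.20 ± 0.10, 0.04 ± 0.10 and -0.24 ± 0.10).

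In the Ran cycle, the gene of the GTPase itself is ran-1. Its brightest probe set read 12.66, 12.48 and 12.68 on the control arrays, 12.62, 12.68 and 12.73 on the smo-1 RNAi arrays and 12.70, 12.68 and 12.89 on the sdc-2 arrays. The arrays of smo-1 RNAi and control embryos overlapped, and the differences from control were 0.07 ± 0.09 (limma adjusted p = 0.647) and 0.15 ± 0.09 (limma adjusted p = 0.314). The other probe sets of ran-1 gave -0.24 ± 0.12 and -0.35 ± 0.13 after smo-1 RNAi, the latter passing as lower over all probe sets (limma adjusted p = 0.0463), and 0.11 ± 0.12 and -0.19 ± 0.13 in sdc-2 embryos. The gene of the GTPase-activating protein RanGAP, ran-2, is the one whose vertebrate protein is a SUMO substrate. It lay at 7.73, 7.67 and 8.02 on the control arrays, 7.30, 7.38 and 7.80 on the smo-1 RNAi arrays and 7.94, 8.11 and 8.36 on the sdc-2 arrays. The perturbed groups did not overlap each other but both overlapped control; the difference between them was -0.64 ± 0.16 (log2, SE, limma adjusted p = 0.00801). Against control ran-2 did not pass with the brightest probe set (-0.32 ± 0.16 and 0.33 ± 0.16), but its other probe set, specific to 1 transcript, gave -0.58 ± 0.09 and -0.28 ± 0.09, which over all probe sets passed as lower in both groups (limma adjusted p = 0.000338 and 0.0336).

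The nucleotide exchange factor gene ran-3, the RCC1 counterpart that charges Ran on chromatin, read 10.37, 10.17 and 10.33 on the control arrays, 10.43, 10.50 and 10.38 on the smo-1 RNAi arrays and 10.76, 10.80 and 11 on the sdc-2 arrays. It rose in sdc-2 embryos, whose arrays stood above all others, 0.56 ± 0.10 (log2, SE, limma adjusted p = 0.00151), but by -0.05 ± 0.18 with the other probe set. After smo-1 RNAi it differed by 0.15 ± 0.10 (limma adjusted p = 0.283). The gene of the Ran importer NTF2, ran-4, lay at 9.94, 9.93 and 10.23 on the control arrays, 9.20, 9.72 and 9.47 on the smo-1 RNAi arrays and 9.48, 9.51 and 9.52 on the sdc-2 arrays. Both perturbed groups lay below control and overlapped each other. It fell in both groups, with differences of -0.58 ± 0.13 after smo-1 RNAi (limma adjusted p = 0.00538) and -0.53 ± 0.13 in sdc-2 embryos (limma adjusted p = 0.0133), the latter a call lost without control array 3 (limma adjusted p up to 0.0603). The Ran-binding protein gene ran-5 fell likewise, with differences of -0.40 ± 0.12 and -0.44 ± 0.12 (limma adjusted p = 0.0234 and 0.0221). These calls were lost without control array 1 or 3, or smo-1 RNAi array 1 or 3 (limma adjusted p up to 0.0867) and lost without control array 1 or 3, or sdc-2 array 2 (limma adjusted p up to 0.0806).

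Several probe sets read 16 of the 41 genes, and the brightest gave the higher difference from control in most of them. After smo-1 RNAi the brightest exceeded the mean of the others in 14 of 16 genes, by a median of 0.51 (log2), and in sdc-2 embryos in 15 of 16, by 0.61. The same held in part over all genes above the median level with several probe sets: in 72.1% and 72.7% of 2494 genes, by medians of 0.26 and 0.32. With the brightest, 3 of the 16 genes rose and 4 fell after smo-1 RNAi, and 10 rose and 1 fell in sdc-2 embryos. With the second brightest the counts were 0 and 11, and 0 and 2. Over the 2494 genes the share called higher in sdc-2 embryos went from 39.9% to 17.2%, and the share called lower from 16% to 25.1%. After smo-1 RNAi the share called higher went from 25.06% to 15.28%, and the share called lower from 28.47% to 42.14%. Between the perturbed groups the choice changed the count for the 16 genes less, but not the same genes were called. There 10 of 16 were lower by the brightest (median -0.45) and 9 by the second brightest (median -0.37), 0 higher by either. The genes npp-8, ima-1, imb-3 and ran-3 were lower by the brightest only, and npp-3, ima-3 and xpo-1 by the second brightest only. Over the 2494 genes 43.14% were lower by the brightest and 32.8% by the second brightest, and 17.44% and 16.08% higher. Where the probes lie in the transcripts is not given in the sources used here. The part of RNA quality in this difference between probe sets was not tested.

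**Figure D4:**
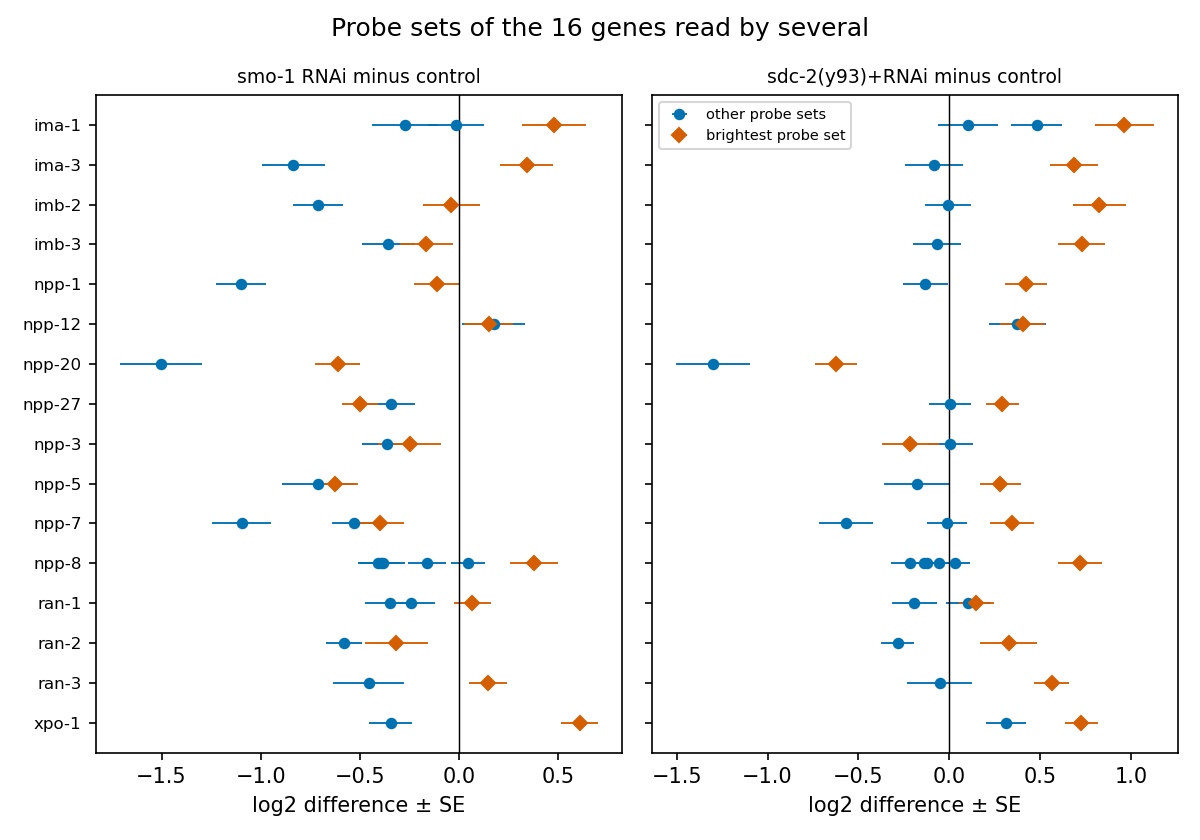
Log2 difference from control, with the standard error, of every probe set of the 16 genes read by several; diamonds are the brightest probe set of a gene and circles the others. In the right panel the diamonds of imb-2, imb-3, ima-3 and ran-3 lie between 0.56 and 0.83 and their circles between -0.08 and -0.01.

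Genes that work beside the pore gave further counts, to be read beside the 38.2% lower and 22.5% higher of genes above the median level after smo-1 RNAi, and 28% and 19.8% in sdc-2 embryos. Of 12 mRNA export genes 9 fell and 0 rose after smo-1 RNAi (median -0.64), and in sdc-2 embryos 3 rose and 3 fell (median -0.13). Between these groups 7 of the 12 were lower with smo-1 RNAi and 0 higher, beside 30.8% and 25.2% of genes above the median level. The adaptor gene aly-1 fell in both groups, with differences of -1.29 ± 0.12 and -1.29 ± 0.12 (limma adjusted p = 1.2e-05 and 5.64e-05). The THO complex gene thoc-2 fell after smo-1 RNAi (-1.07 ± 0.10, limma adjusted p = 1.36e-05) and differed by -0.10 ± 0.10 in sdc-2 embryos (limma adjusted p = 0.57). The adaptor gene aly-3 fell in both groups, with differences of -0.91 ± 0.11 and -0.53 ± 0.11 (limma adjusted p = 9.43e-05 and 0.00527). Of 13 nuclear envelope and lamina genes, 7 fell and 1 rose after smo-1 RNAi (median -0.47), and 3 rose and 2 fell in sdc-2 embryos (median 0.12). The phosphatase gene cnep-1 fell after smo-1 RNAi (-0.81 ± 0.10, limma adjusted p = 6.01e-05), the nuclear anchorage gene anc-1 fell in both groups (-1.35 ± 0.18 and -1.81 ± 0.18, limma adjusted p = 0.000154 and 7.75e-05), and the kinase gene vrk-1 fell in one and rose in the other (-0.88 ± 0.13 and 0.58 ± 0.13, limma adjusted p = 0.00032 and 0.00779). Of 7 SUMO pathway genes 2 rose and 2 fell with smo-1 RNAi and 1 rose and 1 fell in sdc-2 embryos, and smo-1 itself is among those that fell in each. The SUMO ligase gene gei-17 rose (0.58 ± 0.10, limma adjusted p = 0.000727) and the E1 subunit gene aos-1 fell (-0.53 ± 0.10, limma adjusted p = 0.00164). The nucleoporin gene outside the prefix rule, rae-1, chosen after its values were seen, fell after smo-1 RNAi (-0.75 ± 0.16, limma adjusted p = 0.0028) and differed by -0.10 ± 0.16 in sdc-2 embryos (limma adjusted p = 0.713).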

How the data were processed

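The authors deposited 1 table of log2 levels. It was made with RMA in Expression Console, the Affymetrix program, per the submitters' processing notes, in which no version stands. RMA gives all arrays nearly the same distribution, which hides any change shared by all transcripts, and it compresses the differences of dim genes.

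Sample titles gave the group and replicate number of each array. Of 22625 probe sets, 20766 were assigned to 1 gene by the platform annotation, with symbols updated from RefSeq (assembly WBcel235). A gene's level is that of its brightest probe set over the 9 arrays. For 18 of the 41 genes it belongs to a kind (_s, _x, _a or _r) able to hybridise with related transcripts. The test was limma 3.58.1 in R 4.3.3, fitted to all 17118 genes and 9 arrays without covariates (6 residual degrees of freedom). P-values are two-sided, adjusted by Benjamini-Hochberg over every gene fitted, and called below 0.05. The fit was tested on simulated data. P-values of single probe sets come from the same fit over all probe sets of 1 gene.

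The genes, lists and tests were chosen with earlier results of these data known. Array values are given for the genes with the smallest adjusted p in each comparison and for those fixed by their role. The lists each contribute up to 3 genes. The alternatives are in the closing section. Sequences and protein features were not analysed here.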

Additional observations from a re-analysis of the deposited data

Results flagged for a closer look

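The spiked-in hybridisation control cre lay 7.866 (log2) higher on the sdc-2(y93)+RNAi arrays than on those of control, at 12.93 to 13.10 against 5.12 to 5.16, and at 4.90 to 4.97 on the smo-1 RNAi arrays. The probe sets of this control enter none of the comparisons of genes. Its part in the differences of pore and transport genes was not tested.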

How the results depend on the processing

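Counts below are of the 41 genes, higher and then lower. For smo-1 RNAi against control they were 3 and 17 as reported, and for sdc-2(y93)+RNAi against control 11 and 6. Between the perturbed groups they were 1 and 20. Over all 17118 genes the reported fit gave 3039 and 3794, 1860 and 2675, and 3154 and 2947 in these comparisons. An adjusted p of 0.01 left 1 and 9 for smo-1 RNAi, 2 lower for sdc-2(y93)+RNAi, and 0 higher between the perturbed groups. Over all genes it left 2330 and 2832, 1755 lower, and 2365 higher. Requiring a 1.5-fold difference beside an adjusted p of 0.05 left 1 and 6, 7 and 3, and 0 and 12. Over all genes this left 2056 and 2245, 1059 and 1514, and 2110 and 1668. The mean of a gene's probe sets gave 0 higher for smo-1 RNAi and 5 for sdc-2(y93)+RNAi, beside 2974 and 1512 of all genes. Without probe sets able to bind related transcripts, only 25 of the 41 genes could be tested, and 10 of these 25 fell with smo-1 RNAi. Over all genes 2562 of 13618 fell under that setting. The second brightest probe set gave 0 higher for smo-1 RNAi, 1 for sdc-2(y93)+RNAi and a median of -0.069 for the latter. Over all genes it gave 2775 and 1269 higher.

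Centring on autosomal genes put the median of all genes at -0.13, 0.08 and -0.21 in the comparisons. It gave 1 and 24 with a median of -0.447 for smo-1 RNAi, and 0 and 29 with a median of -0.546 between the perturbed groups. Over all 17118 genes it gave 2390 and 5167 for smo-1 RNAi, and 2236 and 6405 between the perturbed groups. Centring on those autosomal genes that exceed the median level put the medians of all genes at 0.20, 0.28 and -0.07. It gave 8 and 9 with a median of -0.115 for smo-1 RNAi, and 23 and 2 with a median of 0.384 for sdc-2(y93)+RNAi. Over all 17118 genes the same centring gave 4967 and 2492 for smo-1 RNAi, and 6901 and 1480 for sdc-2(y93)+RNAi. A repeated quantile normalization gave 5 and 10 for smo-1 RNAi, beside 2998 and 3750 over all genes. Array weights, and a fit to only the 6 arrays compared, each left 0 higher between the perturbed groups. Over all genes they left 3419 and 2858 higher. The cause was not tested.

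Leaving out 1 array at a time gave 1 to 4 higher and 9 to 19 lower for smo-1 RNAi (medians -0.383 to -0.209), 8 to 12 and 3 to 9 for sdc-2(y93)+RNAi (0.074 to 0.186), and 0 to 1 and 16 to 22 between them (-0.424 to -0.336). Over all genes the same fits gave 2552 to 3396 higher and 3126 to 4176 lower for smo-1 RNAi. They gave 1432 to 1918 and 2085 to 2638 for sdc-2(y93)+RNAi, and 2706 to 3371 and 2466 to 3428 between them. Of the calls, 10 of 20, 11 of 17 and 15 of 21 passed in all of these fits, and 6, 3 and 10 under every alternative run.

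With the replicate block the counts were 2 and 17, 11 and 7, and 1 and 19. Over all genes they were 3034 and 3795, 1850 and 2699, and 3143 and 2941. Same-numbered arrays correlated at -0.22 to 0.24 in their deviations from the group means, and nothing in the labels says that a number marks a shared batch, so the block is not a pairing.

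Of the genes whose sign changed while a test was passed on at least 1 side, all did so with the choice of probe set, over the alternatives run. With the mean of probe sets, npp-8 differed by -0.15 in smo-1 RNAi embryos. Without probe sets able to bind related transcripts, ima-1 differed by -0.014 in smo-1 RNAi and ran-2 by -0.28 in sdc-2(y93)+RNAi embryos. With the second brightest, the differences in smo-1 RNAi embryos were -0.41 for npp-8, -0.27 for ima-1, -0.84 for ima-3 and -0.34 for xpo-1. In sdc-2(y93)+RNAi embryos they were -0.22 for npp-8, -0.13 for npp-1, -0.084 for ima-3, -0.0086 for imb-2, -0.069 for imb-3, -0.28 for ran-2 and -0.051 for ran-3. Signal limits npp-25 and npp-26, which lie below the median level of all genes in each group. It also limits xpo-2 after smo-1 RNAi, where its mean was 5.92, against 7.38 in control and 6.66 in sdc-2(y93)+RNAi embryos.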
